A study of Mus musculus with 2 samples.

Results

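Bmp6, Bmpr1a and Bmpr1b are the genes of 1 secreted bone morphogenetic protein (BMP) and of the type I BMP receptors ALK3 and ALK6. Their loci were described by the sites at which the transcription factors SOX6 and SOX9 were called as bound in mouse rib chondrocytes. All called peaks whose centre lay in 1 of 3 fixed mm9 windows were taken: chr13:38400000-38610000 for Bmp6, chr14:35210000-35340000 for Bmpr1a and chr3:141480000-141860000 for Bmpr1b. The windows held 109 of the 102972 peaks of both lists, 90 of 79107 in the Sox6 list and 19 of 23865 in the Sox9 list. The loci were picked with earlier results of these data known, so their peak numbers are a description and not a test.

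The Sox6 list came from a single chromatin immunoprecipitation (ChIP-seq) library of primary rib chondrocytes of untreated wild-type ICR mice at postnatal day 1, made with an anti-Sox6 antibody. A single input DNA library without antibody was made from the same kind of cells, and no peak list of the input was used here. The dissection kept proliferative and prehypertrophic cartilage and left out mature hypertrophic cartilage, per the labels' protocols. The Sox9 list is the submitters' re-analysis of 2 earlier Sox9 samples of mouse primary rib chondrocytes; the labels used here do not state the strain or age of those animals. There is 1 list per factor, so no value carries a replicate error. The lists hold positions only, without scores or read counts, and the sequencing depth is unknown. The labelled cell type was not checked against marker expression, since the lists hold none. Because the lists come from separate experiments, factor, antibody, animals and depth cannot be told apart in any difference between them.

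BMPs are secreted ligands that bring type I and type II receptors together on the cell surface. The type I receptor, a serine/threonine kinase, then phosphorylates the receptor-regulated SMAD proteins, which move to the nucleus and change transcription. In the mouse, BMPR1A and BMPR1B have overlapping functions that cartilage formation requires, and BMP6 is a BMP known from hypertrophic cartilage. SOX9 and SOX6 both bind DNA through an HMG box, and SOX9 is required for chondrocytes to form.

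The members' promoters are printed here to compare, at the starts of the 3 genes, the short letters that HMG boxes of the SOX family recognise. They are RefSeq sequences of build GRCm38.p6 from 250 bases before to 50 bases after a start, 5′ to 3′ on the gene's strand, and capitals mark ACAAAG or ACAATG on either strand (CTTTGT or CATTGT when read on the other). The Bmpr1b promoters lie on the minus strand at chr3:141982215-141982514 and chr3:141931539-141931838, the Bmpr1a promoter on the minus strand at chr14:34502497-34502796 and the Bmp6 promoter on the plus strand at chr13:38345466-38345765. These coordinates are on another build than the peaks, so no peak was placed on or off a promoter.

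Bmpr1b, first: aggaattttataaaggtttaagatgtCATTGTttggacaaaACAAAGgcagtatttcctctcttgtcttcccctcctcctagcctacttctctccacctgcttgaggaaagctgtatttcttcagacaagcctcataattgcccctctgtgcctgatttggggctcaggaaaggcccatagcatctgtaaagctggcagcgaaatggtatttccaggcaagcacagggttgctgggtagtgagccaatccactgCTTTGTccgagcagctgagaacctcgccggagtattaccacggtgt

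Bmpr1b, second: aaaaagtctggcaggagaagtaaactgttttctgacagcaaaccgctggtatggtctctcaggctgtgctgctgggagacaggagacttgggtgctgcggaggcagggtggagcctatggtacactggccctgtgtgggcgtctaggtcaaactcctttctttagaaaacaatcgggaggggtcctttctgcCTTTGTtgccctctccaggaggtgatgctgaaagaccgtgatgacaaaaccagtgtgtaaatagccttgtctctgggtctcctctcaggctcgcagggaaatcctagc

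Bmpr1a: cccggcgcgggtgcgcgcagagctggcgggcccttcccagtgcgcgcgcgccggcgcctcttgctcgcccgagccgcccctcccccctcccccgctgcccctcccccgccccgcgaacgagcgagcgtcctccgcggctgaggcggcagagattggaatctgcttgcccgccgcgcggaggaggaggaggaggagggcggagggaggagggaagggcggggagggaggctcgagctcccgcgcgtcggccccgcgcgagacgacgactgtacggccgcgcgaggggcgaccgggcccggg

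Bmp6: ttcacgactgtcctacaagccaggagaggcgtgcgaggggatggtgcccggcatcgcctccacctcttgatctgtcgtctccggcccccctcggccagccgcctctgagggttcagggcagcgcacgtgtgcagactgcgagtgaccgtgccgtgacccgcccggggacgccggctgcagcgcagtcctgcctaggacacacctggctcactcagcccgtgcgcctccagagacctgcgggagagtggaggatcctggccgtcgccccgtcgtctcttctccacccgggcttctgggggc

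The first Bmpr1b promoter held 1 CATTGT, 1 ACAAAG and 1 CTTTGT, whereas 0.767% of the 32851 promoters of this length in the table held 3 or more. The second held 1 CTTTGT, and at least 1 match was found in 28.6% of all promoters. A further Bmpr1b promoter, which overlaps the second by 132 bases, held that same CTTTGT and is not printed. The Bmpr1a and Bmp6 promoters held no match. They were also the richest in G and C, at 79.3% for Bmpr1a and 69.3% for Bmp6, against 48.3% and 53.0% in the printed Bmpr1b promoters and a median of 52.7% over all promoters. The part of base composition in the match counts was not tested, and a match is not a binding site.

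Bmp6, the ligand gene, had the densest peaks of the 3 loci in the full lists, and its Sox9 peaks all lay toward the low-coordinate end of its window as cut here. Its 210 kb window held 38 Sox6 peaks (181 per Mb) and 8 Sox9 peaks (38.1 per Mb), against 30.8 and 9.30 per Mb of the chromosome ranges over the whole lists. The order of the loci for Sox6 turned with the part of the list used: with the first 23865 Sox6 peaks, as many as in the Sox9 list, the windows held 33.3 per Mb for Bmp6, 38.5 for Bmpr1a and 15.8 for Bmpr1b, and with the first 50% of the list 61.9, 61.5 and 39.5. All 8 Sox9 peaks, and 23 of 38 for Sox6, lay in the first of 4 equal parts of the window, 52.5 kb long. With 50000 bp more at each end, each of 4 equal parts was 77.5 kb long. The first then held 8 of 11 Sox9 peaks and 14 of 46 Sox6 peaks, and the last 2 and 7. The gathering at the low-coordinate end thus rests in part on the window's edges. Where the start of the gene lies in mm9 was not placed, and the flanks of the window can belong to neighbours. In the GRCm38 table Gm47978 comes before Bmp6, on the low-coordinate side. Txndc5 is the next protein-coding gene on the high-coordinate side, away from the Sox9 peaks of the window.

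In 5 places of the Bmp6 window a Sox6 peak and a Sox9 peak overlapped by at least 1 bp, which is called shared here. Shared Sox6 peaks were 5 of 38 (13.2%, 95% exact binomial interval 4.41 to 28.1), beside 23.1% of the whole Sox6 list. Shared Sox9 peaks were 5 of 8 (62.5%, 24.5 to 91.5), beside 76.7% of the whole Sox9 list. Both intervals include the share of the whole list, so no difference was detectable with these numbers of peaks. The intervals cover counting error only and treat peaks as independent, which neighbouring peaks are not.

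The shared site at chr13:38412314-38412520 was the Sox6 peak at place 52 of 79107 in the deposited order. Its Sox9 partner, chr13:38412290-38412447, was at place 250 of 23865, with 134 bp in common and centres 48.5 bp apart. In the series, 18297 Sox9 peaks overlapped the Sox6 peak of nearest centre, and 14 of these pairs (0.0765%) were at least as early in both lists. The order of the lists is not documented, so an early place is not shown to be a stronger peak.

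A second early pair lay 8.08 kb away toward the low-coordinate end. The Sox6 peak chr13:38404199-38404473 was at place 1129, and the Sox9 peak chr13:38404171-38404386 was at place 222. Their overlap was 188 bp, and 111 of the 18297 pairs (0.607%) were as early in both lists. This pair holds the window's earliest Sox9 peak, so its share likewise does not describe the locus. A Sox9 peak 162 bp from the edge of this Sox6 peak, chr13:38404636-38404910, overlapped none and came at place 16664.

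The remaining shared sites of Bmp6 came later in at least 1 list. At chr13:38407934-38408098 the Sox6 peak was at place 13212 and its Sox9 partner at place 11075. At chr13:38423614-38423865 the Sox6 peak (place 17721) and the Sox9 peak (place 8138) had centres 3 bp apart, the closest pair of this window. This Sox6 peak was flanked by 2 Sox9 peaks that missed it, by 50 bp on the low side and by 107 bp on the high side, at places 23671 and 23112. The last shared site, chr13:38436795-38437148, paired Sox6 place 37374 with Sox9 place 23374. All 3 unshared Sox9 peaks of Bmp6 thus lay within 437 bp of a Sox6 centre, as measured from centre to centre.

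Beyond the last shared site, the Bmp6 window held Sox6 peaks without Sox9 peaks. After the Sox9 peak ending at 38436989 there were 24 Sox6 peaks over the 173 kb to the end of the window. That 0 of them overlapped a Sox9 peak follows from the cut, which was made after the window's last Sox9 peak. The next Sox9 centre on chromosome 13 was 191 kb from the last of the window, and 29 Sox6 centres lay between them, of which 25 were in the window. These 25 include the Sox6 peak of the last shared site, whose centre lies past that of its Sox9 partner. Of the 23886 intervals that Sox9 centres leave on the chromosomes, 22 (0.0921%) held 29 or more Sox6 centres, and the median interval held 2. The intervals differ in length, at these loci from 0.245 to 195 kb, and were not matched for it. How unusual the count is for a stretch of this length was therefore not tested. This stretch was singled out after its values were seen. The Sox6 peaks in it ranged over the list: those at chr13:38440490-38440641 and chr13:38511805-38511924 were at places 6413 and 7918, and that at chr13:38446295-38446428 was at place 78092. With only the first 23865 Sox6 peaks, as many as in the Sox9 list, 6 centres remained in the stretch, and 0.410% of intervals held that many or more.

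**Figure D1:**
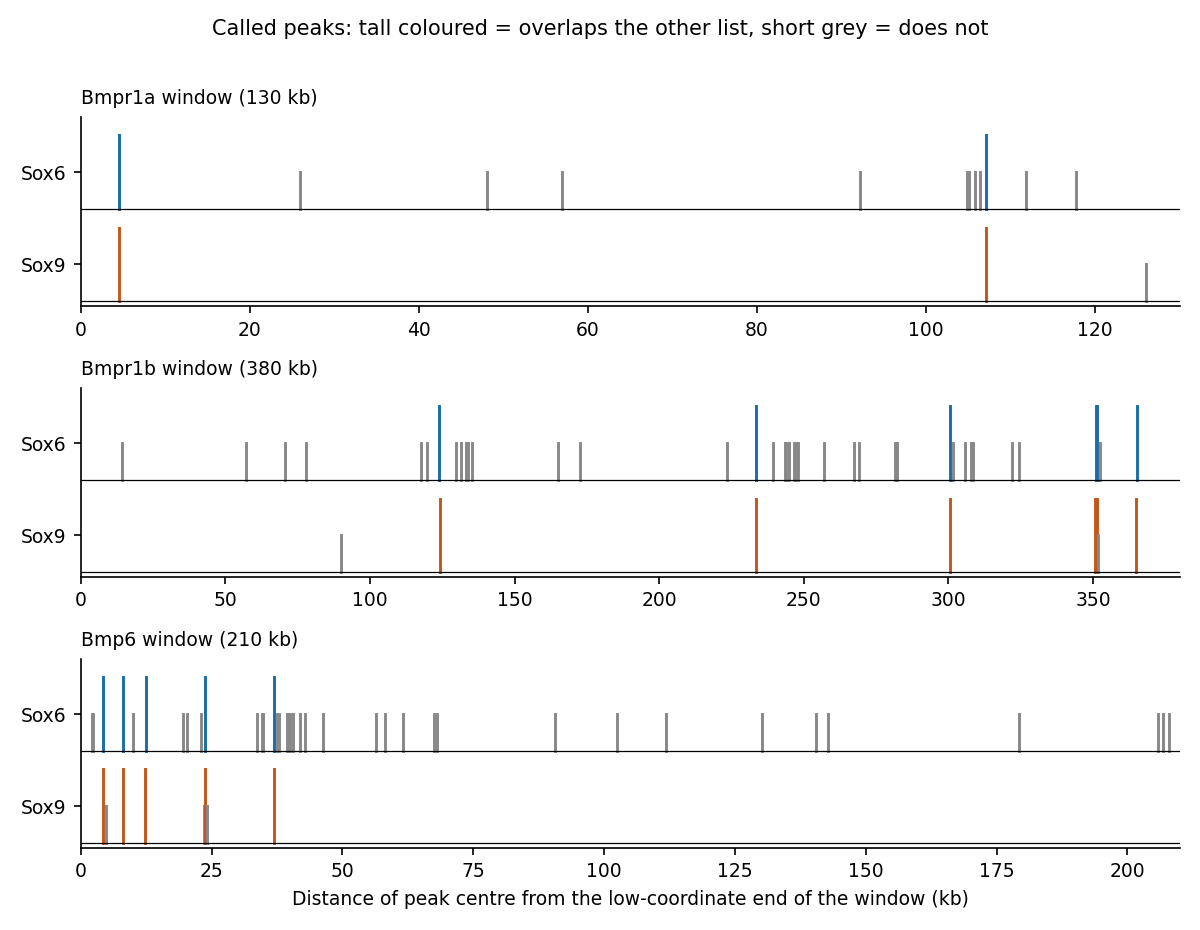
Position of every called peak in the windows of Bmpr1a, Bmpr1b and Bmp6, as the distance of its centre in kb from the low-coordinate end of the window; Sox6 is drawn above Sox9, tall coloured marks overlap the other list by at least 1 bp and short grey marks do not (mark widths are not to scale). In the Bmp6 window all 8 Sox9 marks lie within 36.9 kb of that end, while Sox6 marks run on to 208 kb.

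**Figure D2:**
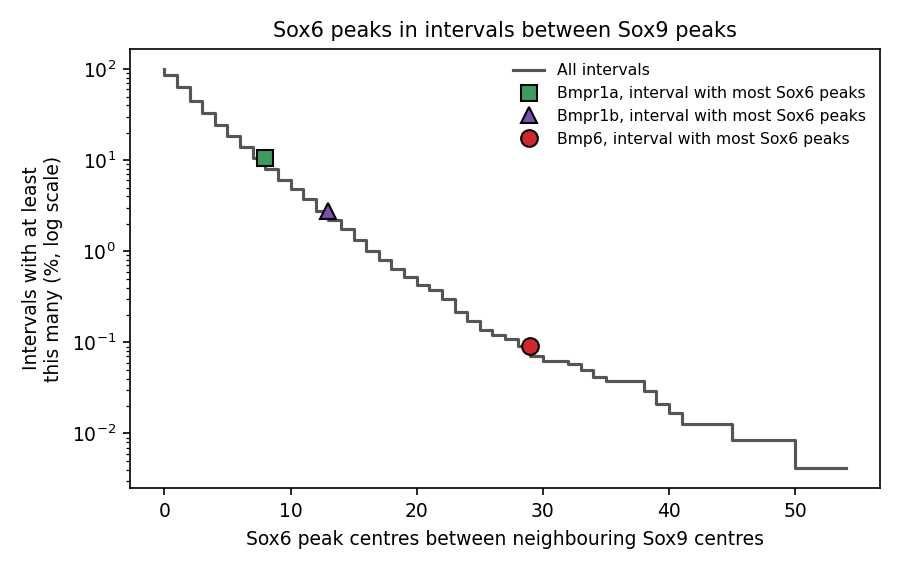
Share of the 23886 intervals between neighbouring Sox9 centres (or a chromosome end) that hold at least the given number of Sox6 centres, on a log scale, with the interval of each window that holds the most of its Sox6 peaks marked. The intervals marked hold 8 centres for Bmpr1a, 13 for Bmpr1b and 29 for Bmp6. The intervals differ in length and were not matched for it.

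The Sox6 peaks of Bmp6 formed a long cluster. With neighbouring centres no more than 12.5 kb apart, 28 of the 38 made up 1 cluster at chr13:38401970-38468253, 66.3 kb long, which also spanned all 8 Sox9 peaks. Of the 9068 Sox6 clusters of 3 or more peaks in the series, 0.607% had 28 peaks or more, and the median cluster had 4. By the same rule 7 of the 8 Sox9 peaks formed 1 cluster over 20.1 kb, and 7.41% of the 1796 Sox9 clusters had 7 or more. The longest stretch of the window without a peak of either list was 36.3 kb, from 38542959 to 38579260. The widest Sox6 peak of Bmp6, chr13:38467858-38468253, measured 396 bp, and the median was 164.5 bp beside 151 bp over the list.

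Bmpr1a, the gene of the type I receptor ALK3, had the fewest peaks. Its 130 kb window held 12 Sox6 peaks (92.3 per Mb) and 3 Sox9 peaks (23.1 per Mb). Shared peaks were 2 of 12 in the Sox6 list (16.7%, exact interval 2.09 to 48.4) and 2 of 3 in the Sox9 list (66.7%, 9.43 to 99.2). With so few peaks the intervals are wide, and they include the 23.1% and 76.7% of the whole lists. No Sox6 peak of this window was in the first 10% of its list, and no Sox9 peak in the first 50% of its own.

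The Sox6 peaks of Bmpr1a gathered toward the high-coordinate end of its window as cut here. The 7 peaks at chr14:35314655-35327856 formed its only Sox6 cluster, and 5 of these lay within 35314655 to 35317193. They included the earliest Sox6 peak of the window, chr14:35315642-35315909, at place 13438, which no Sox9 peak overlapped. The shared site of this group was the Sox6 peak chr14:35317060-35317193 (place 21298), which lay wholly inside the Sox9 peak chr14:35316911-35317217 (place 19480). Of the 9068 Sox6 clusters of the series, 21.2% had 7 peaks or more. With 50000 bp more at each end, the window was again divided into 4 equal parts, each 57.5 kb long. The part at the low-coordinate end then held 5 Sox6 peaks and the part at the high-coordinate end 1. The gathering of Sox6 peaks toward the high end thus rests on the window's edges.

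The other shared site of Bmpr1a lay near the low-coordinate end of its window. There the Sox6 peak chr14:35214411-35214613 (place 37508) and the Sox9 peak chr14:35214410-35214614 (place 14635) had the same centre, with 203 bp in common. Extending the window by 50000 bp at each end added 6 Sox9 peaks on this side and 0 on the other, so the balance of Sox9 peaks between the ends rests on the window's edges. The protein-coding gene on that side in the GRCm38 table is Mmrn2, and whether this site lies in or nearer to Mmrn2 was not placed. The remaining Sox9 peak, chr14:35336034-35336066, was 33 bp wide, the narrowest of the 19, and its centre was 8283 bp from the nearest Sox6 centre. Between these ends the window was sparse, with its longest stretch without a peak, 35.02 kb, from 35266942 to 35301964. Its widest Sox6 peak, chr14:35301964-35302279, followed directly at 316 bp.

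Bmpr1b, the gene of the type I receptor ALK6, had its peaks spread along a 380 kb window. It held 40 Sox6 peaks (105 per Mb) and 8 Sox9 peaks (21.1 per Mb). Shared peaks were 6 of 40 in the Sox6 list (15.0%, exact interval 5.71 to 29.8) and 6 of 8 in the Sox9 list (75%, 34.9 to 96.8). These intervals also include the 23.1% and 76.7% of the whole lists.

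The Sox9 peaks of Bmpr1b were most frequent toward the high-coordinate end of its window. The last of 4 equal parts of the window, 95 kb long, held 11 of the 40 peaks of Sox6 and 5 of the 8 of Sox9. Within 1.56 kb of this part, 3 Sox6 peaks and 3 Sox9 peaks followed each other. The Sox6 peak chr3:141831393-141831571 (place 22781) and the Sox9 peak chr3:141831453-141831623 (place 5485) had 119 bp in common. The Sox6 peak chr3:141830841-141831113 (place 28812) touched the Sox9 peak chr3:141830783-141830850 (place 17985) by only 10 bp. The last Sox9 peak of the group, chr3:141831765-141831878, missed the nearest Sox6 peak by 193 bp, and the last Sox6 peak, chr3:141832238-141832341, was at place 6070 without a Sox9 partner. A further pair, Sox6 chr3:141845037-141845232 (place 46924) with Sox9 chr3:141844844-141845098 (place 9736), lay closer to the window's end.

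The other 3 shared sites of Bmpr1b lay singly along the window. At chr3:141603941-141604058 the Sox6 peak was at place 8611, the earliest of the window's shared Sox6 peaks, and its Sox9 partner was at place 12275, with 39 bp in common. At chr3:141780395-141780563 (place 38172) the Sox6 peak covered the whole of the Sox9 peak chr3:141780397-141780489 (place 8567). At chr3:141713509-141713600 a Sox6 peak at place 78555, among the last 1% of the list, overlapped a Sox9 peak at place 18875 by 41 bp.

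The earliest peaks of both lists in the Bmpr1b window had no partner. The earliest Sox6 peak, chr3:141801991-141802181, at place 3538, had its nearest Sox9 centre 21643 bp away. The earliest Sox9 peak, chr3:141569866-141569955, at place 1512, had its nearest Sox6 centre 12160.5 bp away. In the Bmp6 window the earliest peaks of both lists were shared.

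The largest of the 4 Sox6 clusters of Bmpr1b held 15 peaks over 59.2 kb, chr3:141703242-141762464, of which 1 was shared. Of the Sox6 clusters of the series, 3.45% had 15 peaks or more. With a gap of 5000 bp the largest cluster of the window had 7 peaks, and with 25000 bp 22. Most of the cluster of 15 fell between 2 Sox9 centres 66.8 kb apart, with 13 Sox6 centres between them. Of the 23886 intervals, not matched for length, 2.77% held as many or more. The widest Sox6 peak of the 3 windows, chr3:141804080-141804551 with 472 bp, was in this window, as was the longest stretch without a peak, 50.5 kb from 141652718 to 141703242.

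Set beside all tiles of the same length along the chromosomes, the 3 windows lay at different points of the distribution. For Bmp6, 0.614% of 12207 tiles held at least 38 Sox6 peaks and 5.98% at least 8 Sox9 peaks. For Bmpr1b the shares were 4.08% of 6739 tiles for Sox6 and 16.8% for Sox9. For Bmpr1a they were 9.24% of 19724 tiles for Sox6 and 17.2% for Sox9. Each window was thus farther up the distribution for the longer Sox6 list than for Sox9. With the first 23865 Sox6 peaks the Sox6 shares were 7.56% for Bmp6, 25.6% for Bmpr1b and 7.01% for Bmpr1a, so that the direction turned for Bmp6 and Bmpr1b. The tiles were not limited to genes or to mappable sequence, and since these loci were picked with results known, their place in the distribution is not evidence about BMP genes.

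**Figure D3:**
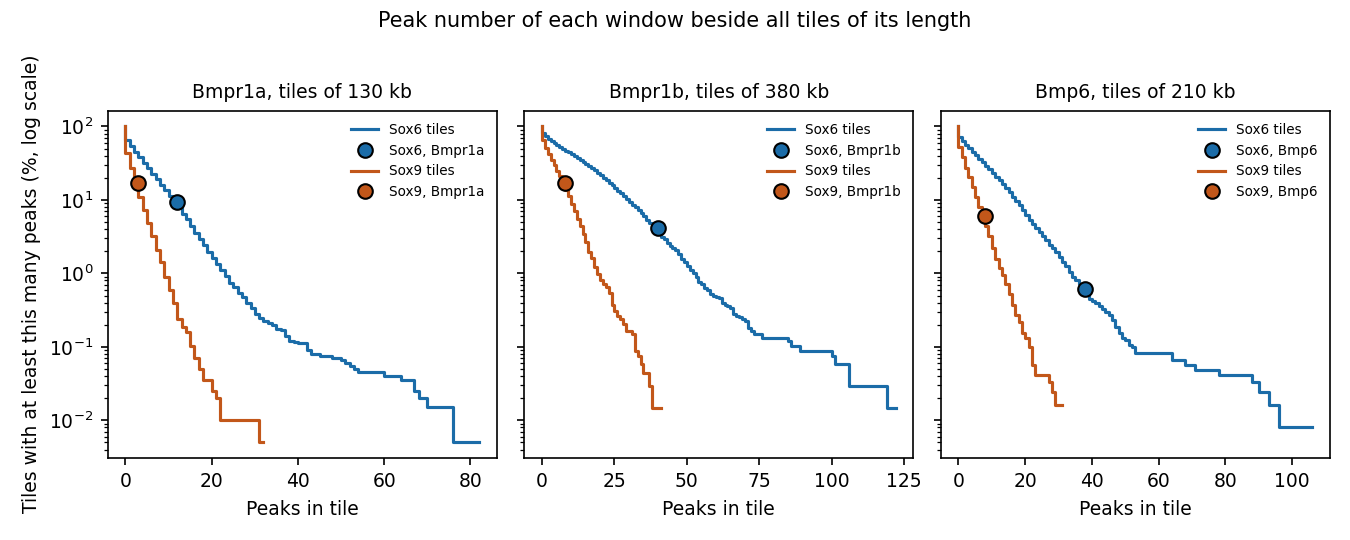
Share of tiles, on a log scale, with at least the given number of peaks, for tiles as long as the windows of Bmpr1a (130 kb), Bmpr1b (380 kb) and Bmp6 (210 kb); lines stand for all tiles and circles for the window itself, Sox6 in blue and Sox9 in orange. The Sox6 circle of Bmp6, at 38 peaks, lies at 0.614% of tiles, the lowest of the 6 circles in the full lists.

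Over the 3 windows together, 13 of 90 Sox6 peaks (14.4%, exact interval 7.92 to 23.4) and 13 of 19 Sox9 peaks (68.4%, 43.4 to 87.4) were shared. Outside the windows 23.1% of Sox6 peaks and 76.7% of Sox9 peaks were, and both values fall inside the intervals. The ratio of Sox6 to Sox9 peaks was 4.00 for Bmpr1a, 5.00 for Bmpr1b and 4.75 for Bmp6, beside 3.31 for the whole lists. At equal list lengths, where the ratio of the lists is 1, it was 1.67 for Bmpr1a, 0.750 for Bmpr1b and 0.875 for Bmp6, so its direction turned for Bmpr1b and Bmp6. No test of these ratios was run. The division of the windows into 4 parts, used above, was chosen after the positions had been seen. The outermost Sox6 centres were 2.16 and 2.13 kb inside the low and high edges for Bmp6, 4.51 and 12.2 kb for Bmpr1a, and 14.3 and 14.9 kb for Bmpr1b. The nearest Sox6 centres left out were 11.4 and 10.2 kb outside for Bmp6, 17.8 and 43.6 kb for Bmpr1a, and 38.5 and 10.5 kb for Bmpr1b.

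The places of the members in the deposited lists covered nearly the whole range. The median Sox6 place was at 45.2% of the list for Bmpr1a, 62.4% for Bmpr1b and 69.0% for Bmp6. The median Sox9 place was at 81.6% for Bmpr1a, 46.1% for Bmpr1b and 58.1% for Bmp6. The median place of shared Sox6 peaks was earlier than that of unshared ones in each window. For Bmpr1a the medians were at 37.2% (2 shared peaks) and 45.9% (10 unshared) of the list. They were at 42.3% (6) and 71.3% (34) for Bmpr1b, and 16.7% (5) and 69.0% (33) for Bmp6. The 2 shared Sox6 peaks of Bmpr1a were at 26.9% and 47.4%, and its earliest Sox6 peak, at 17.0%, was unshared. For Sox9 the medians of shared and unshared peaks were 34.1% (5 peaks) and 96.8% (3) in Bmp6, whereas in Bmpr1b they were 46.1% (6) and 42.6% (2). In Bmpr1a the 2 shared Sox9 peaks had a median of 71.5%, and the 1 unshared peak was at 85.2%. Over the whole lists the medians of shared and unshared peaks were 19.4% and 58.6% for Sox6, and 45.4% and 63.7% for Sox9, so an earlier place of shared peaks was not particular to the 3 genes.

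**Figure D4:**
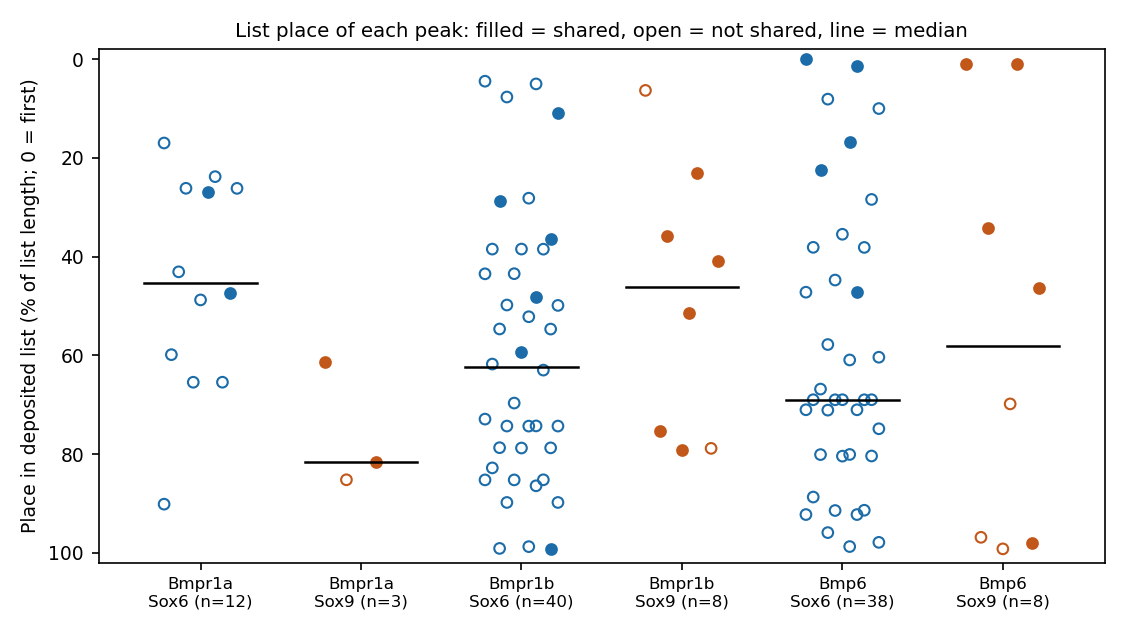
Place of each peak in its deposited list, in % of the list's length with 0 for the first peak at the top, for the Sox6 and Sox9 peaks of each window; filled points overlap the other list, open points do not, and lines are medians. The Bmp6 window has filled points at the top in both lists, at 0.0657% for Sox6 and 0.930% for Sox9, whereas the earliest points of Bmpr1b are open.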

How the data were processed

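The deposited data are 2 lists of called peaks made by the authors, each with chromosome, start and end and without header, score or read count. Bowtie and mm9 are named in the submitters' processing notes without versions. The text of the labels states nothing on the caller, its settings or any filter. The name of the Sox9 list carries the tag FDR1, which that text does not explain. The build of the Sox9 list is not stated on its own and was taken as mm9, since the submitters called it in the manner of the Sox6 list and 76.7% of its peaks overlap that list. Starts were read as BED starts and are printed counted from 1. Members were the peaks with a centre in the 3 windows. A peak was shared when it overlapped the other list by at least 1 bp, clusters were runs of 3 or more peaks with neighbouring centres within 12.5 kb, and tiles were laid from the first peak of each chromosome. Exact binomial (Clopper-Pearson, 95%) intervals were computed with scipy 1.17.1, and no test between groups was run, since each factor has 1 list. The overlap code was checked on simulated lists.

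The members, lists and rules were chosen with earlier results of these data known. In each window every Sox9 peak, the earliest and the widest Sox6 peak, the earliest shared Sox6 peaks, the largest Sox6 cluster and the longest empty stretch were named, and the other peaks named were chosen after their values were seen. The gene and promoter tables are of build GRCm38.p6 and no coordinates were converted, so the planned counts at the other genes of the BMP pathway were not run, and the sequences under the peaks were not used here. Alternatives changed the overlap rule, the part of each list, the window edges, the tiles and the cluster gap.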

Additional observations from a re-analysis of the deposited data

How the results depend on the processing

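Of 91 recomputed values, 54 stayed within 1.5 times the count, or within the interval of the share, and 37 moved; the cause was not tested except where the alternative itself removes peaks or tiles. With the first 50% of each list, peaks numbered 15 (Sox6) and 4 (Sox9) for Bmpr1b, 13 and 4 for Bmp6, and 0 (Sox9) for Bmpr1a, and the shared part was 30.8% of Sox6 and 100.0% of Sox9 for Bmp6, beside 22.5% and 74.7% over the lists so shortened, and 0% of Sox6 for Bmpr1a, where no Sox9 peak was left. With as many Sox6 as Sox9 peaks, 5 Sox6 peaks remained for Bmpr1a, 6 for Bmpr1b and 7 for Bmp6, of which 33.3% were shared for Bmpr1b and 57.1% for Bmp6, beside 49.9% over the shortened list; 25% of the Sox9 peaks of Bmpr1b were shared then, beside 50.3% of the list. Requiring 50% of both peaks gave 5.00% of Sox6 and 25% of Sox9 for Bmpr1b, beside 13.4% and 44.6% of the lists, and a gap of up to 1000 bp gave 100.0% of Sox9 for Bmp6, beside 90.8%. Without its outer 10% at each end the window held 1 Sox9 peak for Bmpr1a, 4 for Bmpr1b and 4 for Bmp6, and with 50000 bp more at each end 9 for Bmpr1a and 13 for Bmpr1b. Among tiles with at least 1 peak the shares were 13.9% (Sox6) and 25.9% (Sox9) for Bmpr1a, 5.03% and 20.8% for Bmpr1b, and 0.841% and 8.18% for Bmp6. A cluster gap of 25000 bp gave 2 Sox6 clusters and 1 Sox9 cluster for Bmpr1a, of which 1 Sox6 cluster had 4 of 8 peaks and the Sox9 cluster 1 of 11 inside the window, and 2 Sox6 clusters for Bmp6, and one of 5000 bp 2 Sox9 clusters for Bmp6. In alternatives added after seeing the data, equal list lengths gave Sox6 tile shares of 7.01% for Bmpr1a, 25.6% for Bmpr1b and 7.56% for Bmp6. In others added then, the Bmp6 stretch between neighbouring Sox9 centres held 6 Sox6 centres at equal list lengths. It held 12 when the first 50% of the Sox6 list was kept. At least as many were held by 0.410% and 0.151% of intervals, which were not matched for length. No paired analysis was possible because each factor has 1 list and no replicate. Depth is unknown, so a site missing from a list is not shown to be unbound.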

Other observations

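Some late Sox6 peaks of 1 locus stood close together in the deposited order. Among 12 successive places from place 54565 of the Sox6 list, 5 were peaks of the Bmp6 window, from 23.0 to 179 kb from its low-coordinate end. Directly successive places occurred 3 times within the Bmp6 window, such as places 72965 and 72966, and 3 times within the Bmpr1b window, such as places 58787 and 58788, whose peaks lie 40.1 kb apart. In the Bmpr1a window there were 0 such pairs. The run of 12 places was picked as the one with the most peaks of its window. Such runs and successive places were not counted at other loci, so they are not shown to be particular to these genes. What orders the list at these places was not tested, and small differences in place were read as no difference.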
